A study of Mus musculus with 6 samples.

Results

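Slc43a1 and 9 other carriers that move amino acids or related nutrients across membranes were followed in the livers of mice on a regular or a soy-enriched diet. Their probes were found by the RefSeq accession printed for each probe, which gave 16 of the 56605 probes on the array, for 10 of the 22911 genes that could be named. The set was chosen by its result: Slc43a1 was picked because its signal was clearly lower in the soy livers, so its own values are a description with no test, whereas the other 9 genes were tested. The study asked how a diet rich in soy changes gene expression in the liver. It used 6 male mice aged 12 weeks, 1 array per mouse. The control group was 3 mice fed only granulated regular food, and the soy group was 3 mice fed a mixture of 75% regular food and 25% soy bean powder, each for 28 days. No allele, transgene or drug is named for either group, and the strain is not given in the sources used here. RNA was taken from pieces of the right hepatic lobe and labelled with Cy3 for 1-colour Agilent mouse arrays. Values below are log2 normalized signals, and differences are soy minus control on that scale. Passing took both a limma p under 0.05 after Benjamini-Hochberg adjustment across the whole array and a soy to control ratio above 1.5 or under 0.66. A probe is called detected on an array where the scanner software marked it as well above the local background. In bulk tissue, fewer cells of a type and less RNA per cell cannot be told apart.

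Large neutral amino acids such as leucine, phenylalanine and methionine enter and leave cells mainly through carriers of system L, which need no sodium. Slc43a1 (LAT3) and Slc43a2 (LAT4) are facilitators of this system, while Slc7a5 (LAT1) and Slc7a8 (LAT2) are exchangers that work only when joined to the glycoprotein Slc3a2 (CD98 heavy chain). Slc38a2 (SNAT2) and Slc38a4 (SNAT4) take up small neutral amino acids with sodium, and Slc38a3 (SNAT3) carries glutamine in and out of hepatocytes. Slc16a10 (TAT1) lets aromatic amino acids pass down their gradient. Slc43a3 belongs to the same family as Slc43a1 by sequence but is known as a carrier of purine nucleobases. The liver takes in dietary amino acids from the portal blood, breaks down their excess and passes the branched-chain ones on to other tissues.

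The stretches just upstream of Slc43a1 and Slc38a2 are shown because these are the genes of the set with the largest differences between the diets. They are the 250 bases before the RefSeq start in assembly GRCm38.p6, at chr2:84840073-84840322 on the plus strand for Slc43a1 and chr15:96699729-96699978 on the minus strand for Slc38a2, each written 5′ to 3′ on the strand of its gene. Capitals mark GC boxes (GGGCGG, or CCGCCC on the other strand) and the E-box CACGTG.
Slc43a1: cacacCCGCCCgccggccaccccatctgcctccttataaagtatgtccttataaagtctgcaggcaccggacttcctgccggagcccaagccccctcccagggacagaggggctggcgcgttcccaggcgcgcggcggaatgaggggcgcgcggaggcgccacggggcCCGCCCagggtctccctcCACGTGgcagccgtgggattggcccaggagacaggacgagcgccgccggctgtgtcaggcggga
Slc38a2: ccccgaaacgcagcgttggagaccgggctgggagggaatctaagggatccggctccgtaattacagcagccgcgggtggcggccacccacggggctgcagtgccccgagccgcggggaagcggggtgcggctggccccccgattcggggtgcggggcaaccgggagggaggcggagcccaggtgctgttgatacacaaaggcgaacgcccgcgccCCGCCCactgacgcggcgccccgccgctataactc
The Slc43a1 stretch was 70.8% G or C and held 2 GC boxes, 1 E-box and 1 CCAAT box, and the Slc38a2 stretch was 72.0% G or C and held 1 GC box and neither of the others. Searched on both strands, 32.7% of 32851 RefSeq promoter stretches of this length held a GC box, 33.8% a CCAAT box and 6.02% the E-box. The letters TGATGNAA, the core of the element read by C/EBP and ATF proteins in amino acid shortage, were in neither stretch and in 3.45% of all. Only these 250 bases were searched, so such an element elsewhere in either gene, introns included, would have been missed. A promoter stretch was at hand for 7 of the 10 genes. The array design uses the mouse build mm9, and the probes themselves are therefore not placed on these coordinates.

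Slc43a1 (NM_001081349) was lower in every soy liver on its brighter probe. The control livers read 10.27, 10.15 and 10.12 and the soy livers 8.59, 8.48 and 8.18. The groups were separated by 1.53 log2 units, while the control values lay within a narrow band. The means were 10.18 ± 0.08 in control and 8.42 ± 0.21 in soy (SD, n = 3 each), a difference of -1.76, which is a control signal 3.39 times that in soy. On slide 1, which carried control 1, control 2 and soy 1, the difference was -1.62, and on slide 3, which carried control 3 and soy 3, it was -1.94. Slide 2 carried soy 2 alone and gives no difference of its own. The probe was detected on all 6 arrays.

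**Figure D1:**
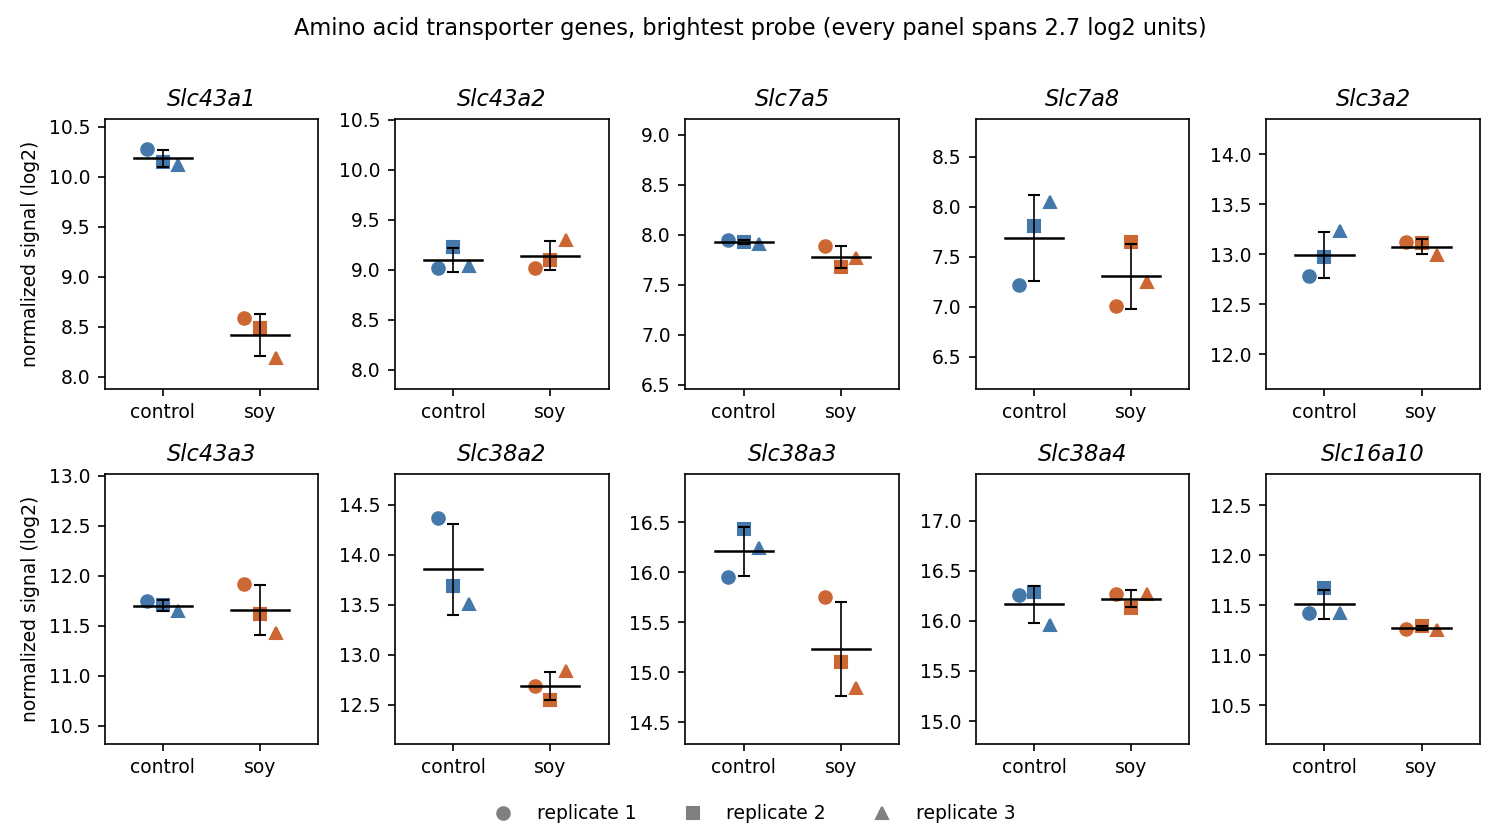
Normalized log2 signal of the 10 genes on the brightest probe of each, with 1 point per mouse, a bar at the mean of the group and whiskers of 1 SD (n = 3). Each panel has its own position on the axis but the same height, so distances can be compared and levels cannot. Slc43a1 shows a gap of 1.53 log2 units between the groups, Slc38a2 one of 0.67 and Slc38a3 one of 0.20.

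The dimmer Slc43a1 probe, assigned to the same transcript, did not show this separation. It read 7.97, 8.17 and 8.26 in control and 8.24, 7.74 and 7.73 in soy, and soy 1 lay among the control values. Its difference was -0.23, with 0.17 on slide 1 and -0.53 on slide 3, although it too was detected on all 6 arrays. When both probes were averaged, the difference of Slc43a1 was -0.995. The size of the difference therefore depends on which probe stands for the gene, and what makes the probes differ was not tested.

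**Figure D2:**
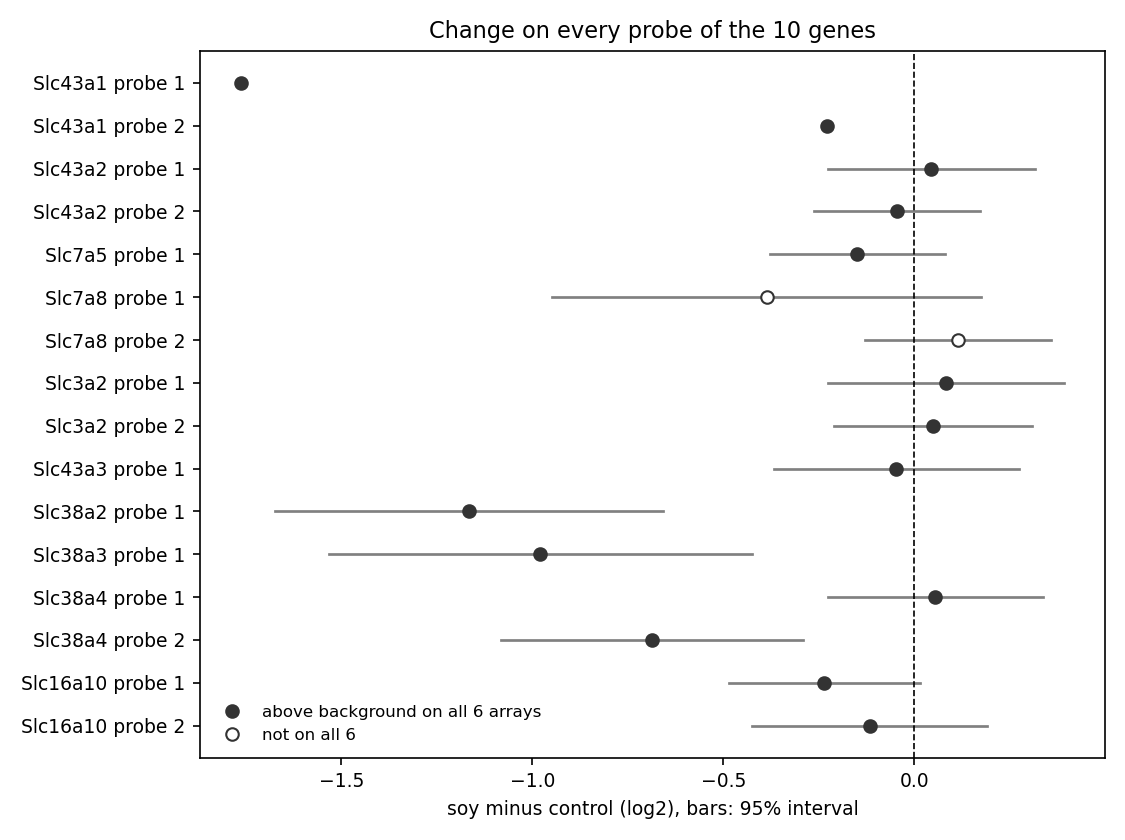
Difference between soy and control livers (log2, horizontal axis) for each of the 16 probes, numbered from the brightest of its gene, with 95% intervals from the limma fit. The Slc43a1 probes carry no interval because the gene was selected on this difference. Slc43a1 probe 1 lies at -1.76 and probe 2 at -0.23, and the Slc38a4 probes at 0.06 and -0.69.

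None of the other system L genes passed. Slc43a2, the facilitator closest in function to Slc43a1, read 9.02, 9.23 and 9.04 in control and 9.02, 9.10 and 9.30 in soy. These ranges overlapped, and the difference was 0.04 (95% interval -0.23 to 0.32, limma adjusted p = 0.917), with -0.04 on its dimmer probe. The interval does not reach a fold change of 1.5 in either direction.

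Slc7a5, the LAT1 light chain, read 7.95, 7.93 and 7.91 in control and 7.89, 7.68 and 7.77 in soy. All soy values were below all control values, by 0.02 at the nearest, and the difference was -0.15 (SE 0.10, limma adjusted p = 0.621). Over the alternatives it lay between -0.215 with the processed signal and -0.039 with a shift to the 75th percentile. Slc7a8, the LAT2 light chain, read 7.22, 7.81 and 8.05 in control and 7.01, 7.65 and 7.25 in soy. It was detected on all 3 control arrays and 2 of 3 soy arrays, the groups overlapped, and the difference was -0.39 (SE 0.24, limma adjusted p = 0.599). It was -0.62 without control 1, -0.21 without control 3 and -0.24 without soy 1. The dimmer Slc7a8 probe was detected on 0 of 6 arrays and differed by 0.12. With the processed signal of the scanner software in place of the background-corrected median, these Slc7a8 probes differed by -0.66 (limma adjusted p = 0.324) and 0.998 (limma adjusted p = 0.00257), so the call of the gene there came from the undetected probe.

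Slc3a2, the heavy chain shared by LAT1 and LAT2, read 12.78, 12.97 and 13.23 in control and 13.13, 13.11 and 13.00 in soy. The soy values lay inside the control range, and the difference was 0.08 (SE 0.13, limma adjusted p = 0.854). Its dimmer probe differed by 0.05.

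Among the sodium-coupled carriers, Slc38a2 and Slc38a3 were lower in every soy liver, without passing. Slc38a2, the system A carrier SNAT2, read 14.37, 13.69 and 13.51 in control and 12.69, 12.55 and 12.84 in soy. The groups did not overlap, with control 1 standing highest, and the difference was -1.16 (SE 0.22, limma adjusted p = 0.0907), a control signal 2.24 times that in soy. It was -1.34 on slide 1 and -0.67 on slide 3. Slc38a2 passed with the processed signal (limma adjusted p = 0.0236) and when only probes detected throughout a group were tested (limma adjusted p = 0.0469), while its adjusted p was 0.150 with an offset of 16 and 0.307 with the slide as a block. The processed signal called 5892 of the 22911 genes.

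Slc38a3, the glutamine carrier SNAT3, read 15.95, 16.43 and 16.24 in control and 15.75, 15.10 and 14.84 in soy. Soy 1 came within 0.20 of the lowest control value, and the difference was -0.98 (SE 0.24, limma adjusted p = 0.166). It was -0.44 on slide 1 and -1.40 on slide 3, and it passed with the processed signal (limma adjusted p = 0.0337), while its adjusted p was 0.373 with the slide as a block.

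Slc38a4, the system A carrier SNAT4, had probes that differed from each other. The brighter probe read 16.26, 16.29 and 15.96 in control and 16.27, 16.13 and 16.27 in soy, with a difference of 0.06 (SE 0.12, limma adjusted p = 0.900), which turned to -0.02 with the processed signal, -0.03 with a shift to the 75th percentile and -0.003 with cyclic loess. The dimmer probe, of the same transcript, read 15.28, 15.30 and 14.74 in control and 14.47, 14.54 and 14.26 in soy. There every soy value was below every control value, and the difference was -0.69 (SE 0.17, limma adjusted p = 0.174).

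Slc43a3, the nucleobase carrier, read 11.75, 11.71 and 11.65 in control and 11.92, 11.62 and 11.42 in soy. The soy values spanned the control values, and the difference was -0.05 (SE 0.14, limma adjusted p = 0.926). Slc16a10, the aromatic amino acid carrier TAT1, read 11.42, 11.68 and 11.42 in control and 11.27, 11.29 and 11.25 in soy. Its groups did not overlap, and the difference was -0.24 (SE 0.11, limma adjusted p = 0.463), while its dimmer probe, which is assigned to another transcript, differed by -0.12.

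In the whole fit 0.35% of probes and 0.532% of genes passed. The brighter Slc43a1 probe was among them, which its choice had fixed and from which nothing is read. Of the 9 genes not chosen for their own difference, 0 passed by limma. At an unadjusted p under 0.05 on the brightest probe, 2 of the 9 were lower in soy (Slc38a2 and Slc38a3) and 0 were higher, beside 7.02% and 7.21% of all genes. The groups did not overlap, with soy lower, in 4 of the 9 (Slc7a5, Slc38a2, Slc38a3 and Slc16a10), and with soy higher in 0, beside 10.8% and 9.68% of all genes. The median difference of the 9 was -0.15, and that of all genes was -0.006. More spots were detected on the control arrays (37010, 36366 and 38163 of 59305) than on the soy arrays (31308, 31988 and 32498), and the part of this in the differences was not tested.

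The genes whose profile lay nearest to that of Slc43a1 were ranked by the root mean square difference of log2 values over the 6 arrays, after the mean of each probe was subtracted, among 13497 genes whose brightest probe was detected on all of them. The nearest 5 were Arhgef26 (0.269), 1810055G02Rik (0.286), Tnf (0.286), Coq10b (0.292) and Gm826 (0.308). Being chosen by their likeness to Slc43a1, they are given without tests. Arhgef26 read 12.12, 11.54 and 11.61 in control and 10.22, 10.04 and 10.39 in soy. Coq10b, which binds coenzyme Q in mitochondria, read 12.75, 13.09 and 12.72 in control and 11.88, 10.94 and 10.99 in soy, and its other probes differed by -1.36 and -1.19. The Tnf probe in this list differed by -1.66, but the other Tnf probe was detected on 0 of 6 arrays and gives no reading of this cytokine gene. Of the other carriers, Slc38a2 ranked 33 (0.415) and Slc38a3 ranked 71 (0.466) by this measure. The next carrier was Slc16a10 at rank 1883, and Slc43a2 was at 8226. The Slc43a1 profile is mainly a step between the groups, so these ranks largely restate the differences given above and add no support.

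**Figure D3:**
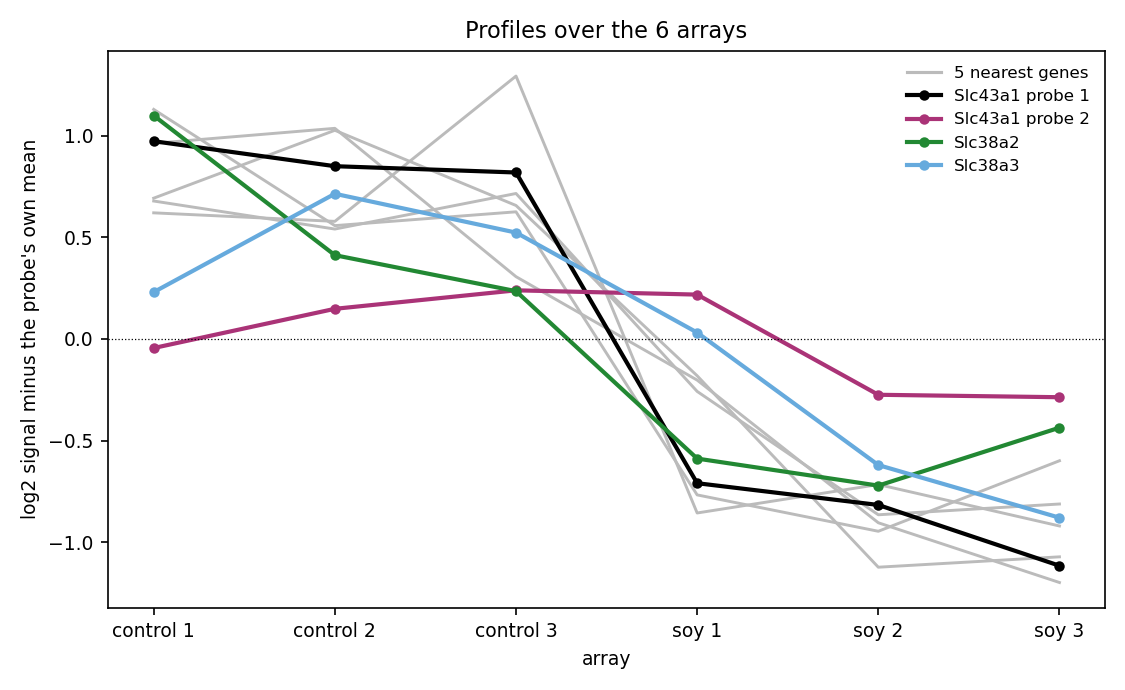
Log2 signal on each of the 6 arrays minus the mean of the probe over those arrays, for both Slc43a1 probes, Slc38a2, Slc38a3 and the 5 nearest genes in grey. The lines join the values of 1 probe and imply no order of the mice. The dimmer Slc43a1 probe stays within 0.29 of its mean, and the brighter one runs from 0.97 to -1.12.

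The wider machinery of amino acids was read from 10 lists with 128 genes, of which 127 were measured, and 0 of these passed by limma in either direction, beside 0.532% of all genes. The carriers of the Slc1 family, which take up glutamate and neutral amino acids, had a median difference of -0.001 over 5 genes, 1 of them lower at an unadjusted p under 0.05, beside 7.02% of all genes. That was Slc1a4 (ASCT1), a carrier of serine and alanine, with 14.77, 14.07 and 13.79 in control and 13.36, 13.19 and 13.26 in soy, a difference of -0.94 (SE 0.23, limma adjusted p = 0.171). Slc1a2, a glutamate carrier, differed by -0.20. The median of the 3 genes detected throughout a group was -0.20.

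The other Slc7 carriers with Slc3a1 had a median of -0.01 over 10 genes, with 1 higher and 1 lower at an unadjusted p under 0.05, which is near the shares of all genes (7.21% and 7.02%). Slc7a2 (CAT2), a carrier of arginine and lysine, read 12.61, 12.05 and 11.46 in control and 11.44, 11.14 and 10.85 in soy, a difference of -0.89 (SE 0.28, limma adjusted p = 0.287). Slc7a7, a partner of Slc3a2 that exports these same basic amino acids, read 10.53, 10.74 and 10.36 in control and 10.92, 11.31 and 11.79 in soy, a difference of 0.80 (SE 0.22, limma adjusted p = 0.208). The median of the 4 Slc7 list genes detected throughout a group was 0.17. With the processed signal the medians of the whole Slc1 and Slc7 lists were 0.27 and 0.75.

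Of the 10 Slc6 carriers, 4 were higher and 1 lower at an unadjusted p under 0.05, beside 7.21% and 7.02% of all genes, with a median of 0.29. The median was 1.06 with the processed signal, 0.095 with the slide as a block and 0.106 without soy 2. Of the 4 higher genes, Slc6a14 was detected on 0 of 6 arrays. Slc6a9, a glycine carrier, read 14.07, 12.68 and 13.44 in control and 14.39, 14.31 and 14.33 in soy, and the difference of 0.95 (SE 0.30, limma adjusted p = 0.291) came with a wide spread in control. Slc6a6, the taurine carrier, read 11.56, 11.98 and 12.01 in control and 12.74, 12.37 and 12.38 in soy, a difference of 0.65 (SE 0.16, limma adjusted p = 0.179), with 0.57 on its dimmer probe. Of the 10, 5 were detected throughout a group. The Slc36 carriers and the rest of the Slc38 family had 12 genes with a median of -0.03, with Slc38a1 and Slc38a7 both at 0.34. A dimmer Slc38a1 probe, detected on 3 control and 2 soy arrays, differed by -0.11. The median of these 12 was 0.28 with the processed signal. Among 6 other genes for amino acid carriers of lysosomes, Slc66a1 differed by 0.45 (SE 0.10, limma adjusted p = 0.141) and Slc15a4 by 0.29. Their dimmer detected probes differed by 0.57 and 0.13.

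The mitochondrial carriers of amino acids were lower in soy in 9 of 11 genes, with a median of -0.10, and 3 were lower at an unadjusted p under 0.05. Among all 22911 genes, 11723 were lower and 7.02% were lower at that p. The median of the 11 ranged from -0.166 to -0.074 when 1 array was left out, and from -0.166 to -0.019 over all alternatives. Slc25a22, a glutamate carrier, read 13.10, 13.24 and 13.70 in control and 12.27, 12.52 and 12.66 in soy, a difference of -0.86 (SE 0.18, limma adjusted p = 0.115). Its 2 other probes differed by -0.76 and -0.68, so its 3 probes gave like values. Slc25a15, the ornithine carrier of the urea cycle, differed by -0.62 (SE 0.15, limma adjusted p = 0.169).

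Enzymes that break down phenylalanine, tyrosine and tryptophan, the aromatic amino acids carried by Slc16a10, were lower in soy in 11 of 13 genes, with a median of -0.40. Of these 13, 9 were lower at an unadjusted p under 0.05 and the groups did not overlap in the same direction in 9, beside 7.02% and 10.8% of all genes. The alternatives gave medians between -0.43 and -0.31. Tat, which starts tyrosine breakdown, read 16.82, 16.51 and 15.70 in control and 15.72, 15.50 and 15.53 in soy, a difference of -0.76 (SE 0.26, limma adjusted p = 0.324), and the groups overlapped because control 3 lay below soy 1. Hpd, the following enzyme, read 16.73, 17.11 and 16.66 in control and 16.51, 16.08 and 15.96 in soy, a difference of -0.65 (SE 0.18, limma adjusted p = 0.220). By contrast the 19 genes of branched-chain amino acid breakdown, whose substrates also pass through system L, had a median of 0.01. Of them, 1 was higher at an unadjusted p under 0.05, near the 7.21% of all genes. This was Bckdk, the kinase that switches off the branched-chain ketoacid dehydrogenase, at 0.64 (SE 0.19, limma adjusted p = 0.262). Hsd17b10 differed by -0.28.

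The 22 genes of amino acid sensing at mTORC1 had a median of 0.02, with 1 higher and 2 lower at an unadjusted p under 0.05, near the shares of all genes (7.21% and 7.02%). Castor2, of the arginine sensor family, differed by 0.50 (SE 0.13, limma adjusted p = 0.190) and Flcn by -0.29, with -0.21 on its dimmer probe. In the ATF4 response to amino acid shortage, 2 genes were higher and 2 lower at an unadjusted p under 0.05 among 19 measured, beside 7.21% and 7.02% of all genes, with a median of 0.10. That median ranged from 0.035 to 0.168 when 1 array was left out. Psat1, an enzyme of serine synthesis, read 7.19, 7.06 and 6.88 in control and 7.98, 8.70 and 9.57 in soy, a difference of 1.71 (SE 0.35, limma adjusted p = 0.115), while its dimmer probe, detected on control 2 alone, read 8.73 there and between 6.33 and 6.73 on the other arrays. Asns, the asparagine synthetase, read 9.07, 8.17 and 9.70 in control and 9.18, 10.26 and 11.30 in soy, and with overlapping groups the difference was 1.27 (SE 0.56, limma adjusted p = 0.445). Its dimmer probe, detected on 2 control and 2 soy arrays, differed by 0.54.

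**Figure D4:**
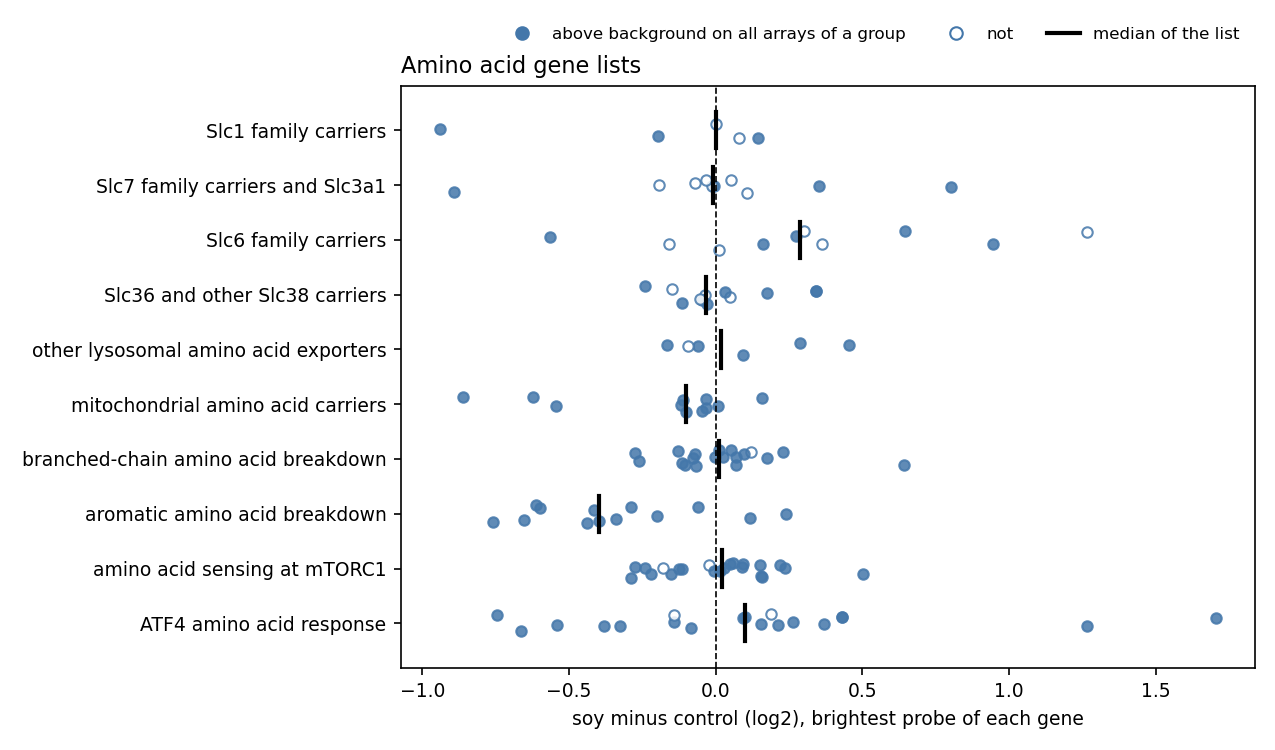
Difference between soy and control livers (log2, horizontal axis) for the brightest probe of each gene in the 10 lists, with 1 point per gene, filled where the probe was detected throughout a group, and a bar at the median of the list. The median of aromatic amino acid breakdown lies at -0.40, that of the Slc6 carriers at 0.29, and that of branched-chain breakdown at 0.01.

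The tissue was checked against marker lists. All 10 hepatocyte markers were detected on every array, with a median difference of -0.11. Of the 10, 8 were lower in soy, and at an unadjusted p under 0.05 Cps1 and Tat were lower and Apob was higher, beside 7.02% and 7.21% of all genes. Tat is also in the list of aromatic amino acid breakdown. The hepatocyte markers had summed linear signals of 2422000, 2498000 and 2430000 in control and 2367000, 2231000 and 2224000 in soy. Quantile normalization sets all arrays to a common distribution, so sums led by the brightest probes say little about the share of hepatocytes. Slc43a1 is also strongly expressed in the pancreas, and markers of that organ were read beside it. All 10 pancreas markers had a lower mean in soy (median -0.42), with 4 of 10 at an unadjusted p under 0.05 and no overlap in 3, beside 7.02% and 10.8% of all genes. Of the 10, 5 were detected throughout a group, and the median of these 5 was -0.26. The summed linear signals of all 10 were 36840, 53050 and 44200 in control and 27460, 32440 and 24490 in soy. Such a sum follows its brightest probe, here that of the elastase Cela1, and brightness of different probes is not comparable as level. Cela1 read 14.79, 15.44 and 15.16 in control and 14.32, 14.67 and 14.19 in soy. Cela2a differed by -1.21 (SE 0.21, limma adjusted p = 0.0724).

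Of the 10 pancreas markers, 9, 9 and 5 were detected on the control arrays and 4 on each soy array. The trypsin gene Prss2 read 7.20, 7.26 and 6.45 in control and 6.22, 6.66 and 6.30 in soy. Prss2 was detected on control 1 and control 2 alone, as were Cpa1, Cpb1 and Pnlip, a group made here by that pattern after the values were seen. Among the acinar genes detected on all 6 arrays, Amy2a5, an amylase, read 11.85 in control 3 against 12.05, 11.72 and 11.61 in soy, so that its groups overlapped. The others stood above their soy values in control 3: Cela1 read 15.16 there, Cela2a read 10.24 against 9.23, 9.60 and 9.25 in soy, and Ctrb1, a chymotrypsinogen, read 11.06 against 10.64, 10.67 and 10.61 in soy. Of the insulin genes, Ins1 was detected on all 3 control arrays and 0 of 3 soy arrays, with 6.99, 7.07 and 6.96 in control and 6.97, 6.82 and 6.78 in soy, and Ins2 was detected on 0 of 6 arrays. Against control 3 alone the Slc43a1 difference was -1.70. Whether the marker probes detected on all 6 arrays report pancreas RNA in these livers was not tested. The part of the pancreas signals in the Slc43a1 difference was not tested either.

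**Figure D5:**
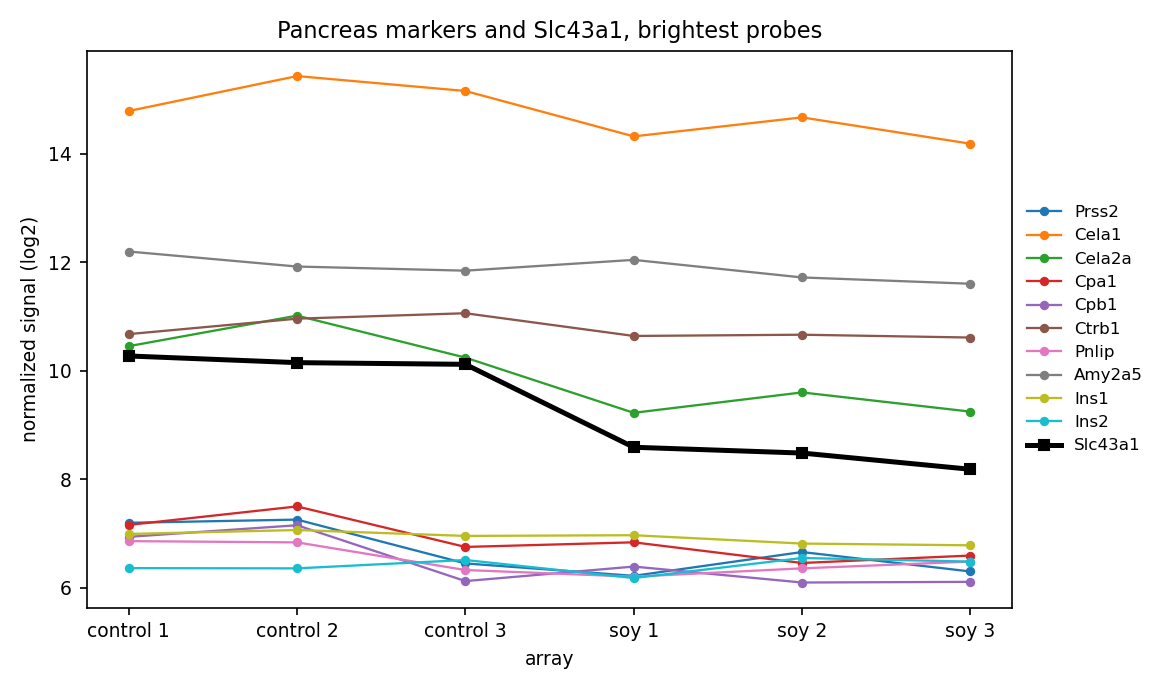
Normalized log2 signal of 10 pancreas markers (thin lines) and of the brighter Slc43a1 probe (thick black line) on each array, on the brightest probe of each gene. Cela2a reads 10.46, 11.02 and 10.24 in control and 9.23, 9.60 and 9.25 in soy, and Prss2 reads 7.20, 7.26 and 6.45 in control and 6.22, 6.66 and 6.30 in soy. Heights of different probes are not comparable as levels.

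The other cell types of the liver showed no passing marker. The median difference was 0.12 for 8 Kupffer cell markers, 0.20 for 7 endothelial markers, -0.17 for 7 stellate cell markers, 0.12 for 5 cholangiocyte markers, 0.42 for 5 red cell and neutrophil markers and -0.09 for 5 adipocyte markers. Of these lists the stellate one held 2 genes of 7 that were lower at an unadjusted p under 0.05, Col1a1 (-0.997) and Col3a1 (-0.94), beside 7.02% of all genes. Their part in the carrier values was not tested.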

How the data were processed

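Liver RNA from 6 mice, 3 per diet, was measured on 1 Agilent 1-colour array each. The authors deposited unscaled median intensities of spots and their surroundings, read by Feature Extraction 11.5.1.1, and a table of log2 values. The deposited log2 table differed from the values used here by 0.071 at most. After normexp correction with an offset of 50, quantile normalization and log2 transformation, spots were averaged per probe, without control or outlier spots. Each of 56605 probes was tested with limma 3.58.1 in R 4.3.3, and the fit was tested on simulated data. Because 3 arrays per group were available, precision is limited by their number. The p-values set each difference against the spread within groups, moderated over all probes. With 1 array per mouse, that spread joins differences between mice, arrays and slides. Symbols came from RefSeq accessions (58.3% of probes), and a gene with several probes was given by the brightest. The carriers, the lists and the rule for naming genes were chosen with earlier results of these data known. Every carrier was named, with the 2 largest differences of each amino acid list among probes detected throughout a group, and the 5 profiles nearest to Slc43a1. The markers of cell types, Slc6a14 and the further probes of named genes were named after their values were seen. Tables and plots were made with Python 3.11.15, pandas 2.3.3 and matplotlib 3.10.9.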

Additional observations from a re-analysis of the deposited data

How the results depend on the processing

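With 3 mice per group on 3 slides, the number of arrays limits every value, and probes near background carry the least information. Slc43a1 was lower in soy under each of 22 alternatives, from -2.103 with the processed signal to -0.995 with the mean of its probes. It stood at -1.935 on slide 3 alone and at -1.85 to -1.64 when 1 array was left out. All of these reuse the arrays on which the gene was chosen. Some, such as the trend and robust settings, cannot change its difference. The shared sign is therefore a description and no support. The genes passing numbered 122 (78 higher in soy), but 5892 (5332 higher) with the processed signal, 313 with only probes well above background, 184 with trend and robust settings, 48 with an offset of 16, 16 with the slide as a block, 18 to 130 when 1 array was left out (18 without soy 2, 19 without soy 3, 30 without soy 1, 45 without control 2 and 63 without control 1) and 10 without control 1 and 2. Counting Slc43a1, whose pass its choice had fixed, the passing carriers numbered 4 with the processed signal (Slc43a1, Slc38a2, Slc38a3 and Slc7a8), 2 with only probes well above background (Slc43a1 and Slc38a2) and 0 without control 1 and 2, where the lone control array is assumed to vary like the others, against 1 otherwise. The replicate block, which has the shared number as a term, gave 51 passing genes. Deviations of same-numbered arrays from their group means correlated at 0.10, -0.05 and 0.10. Of the control arrays, 2 of 3 were closest to the soy array of their number. Control 1 and soy 1 shared slide 1, and control 3 and soy 3 shared slide 3. Control 2 and soy 2 lay on different slides, so number and slide cannot be fully told apart. The sign turned for Slc38a4 with the processed signal (-0.024), the 75th-percentile shift (-0.031), cyclic loess (-0.003), the mean of its probes (-0.315), on slide 1 (-0.003) and without control 3 (-0.051), for Slc43a3 with the slide block (0.013), on slide 1 (0.188), without soy 3 (0.068) and without control 1 and 2 (0.009), for Slc3a2 on slide 3 (-0.236), without control 1 (-0.024) and without control 1 and 2 (-0.154), and for Slc43a2 on slide 1 (-0.105) and without soy 3 (-0.036). Over the fits that left out 1 array, Slc38a4 ranged from -0.051 to 0.116, Slc43a3 from -0.18 to 0.068, Slc3a2 from -0.024 to 0.202 and Slc43a2 from -0.036 to 0.112, while Slc7a8 ranged from -0.624 to -0.208. Over those fits Slc7a5 ranged from -0.206 to -0.098 and Slc16a10 from -0.28 to -0.151. In each the cause was not tested. The median of all probes was shifted to 0.125 by the processed signal and to 0.134 by the 75th-percentile shift. The values without control 1 and 2, within slides and with the slide as a random block were chosen after seeing the data.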

Other observations

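Slc6a20b, a proline and imino acid carrier, read 10.25 in soy 2 and between 6.17 and 6.33 on the other 5 arrays, where this probe, the brighter of the gene, was not well above background. Its relative Slc6a20a read 10.39 in soy 2, above the other arrays (8.76 to 9.37). The other Slc6a20b probe was detected on control 2 alone and read 6.25 in soy 2, its lowest value, and up to 7.63 elsewhere. Both genes were singled out after their values were seen.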
